A study of Mus musculus with 11 samples.

Results

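The regions described here are 500 bp windows at the 3′ ends of protein-coding genes in which PU.1 ChIP-Seq reads outnumbered input DNA, and 937 of 21707 candidate windows (4.32%) met the rule. A candidate was the window with the most reads within 2 kb of a protein-coding transcript end (mouse genome mm9) and over 5 kb from any protein-coding transcription start site (TSS). It was kept when a cell type had at least 15 pooled ChIP reads and at least 3 times the depth-scaled input, with the scaled input set to no less than 3 reads, after each library was reduced to 1 read per position and strand. The 937 became 577 with the floor of 3 set on the input reads as counted, and 541 without the second chromatin preparation of MEL cells (MEL B). Ends of all annotated protein-coding transcripts were used, and 632 windows were kept with only the end of each gene's longest transcript. The ChIP and input reads chose the windows, and read numbers in them are a description and not a test. The same read thresholds were met by 34978 windows over the whole genome.

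PU.1 was immunoprecipitated with the antibody T-21 from MEL cells, a mouse erythroleukemia line (clone 4) that stably carries a fusion of GATA-1 with ER and was grown under puromycin, and from ES-EP, untransformed erythroid progenitors made from embryonic stem cells and kept in Epo, SCF, IGF-1 and dexamethasone. Each cell type had 2 chromatin preparations, A and B, each sequenced as 2 libraries, and the comparison asks where PU.1 sits in leukemic and in normal erythroid cells. MEL cells are a single clone, so that differences from ES-EP are differences between these cultures. After the reduction the ChIP libraries held between 1869760 and 4703083 reads. The input held 4210724 reads in MEL cells, from a single library, and 7088441 in ES-EP, from 2 libraries pooled. A MEL input read therefore stood for 2.84 ChIP reads and an ES-EP input read for 1.78, and most windows had few input reads (over the kept windows the median was 1 for MEL cells and 3 for ES-EP).

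PU.1 belongs to the ETS family of transcription factors and binds purine-rich DNA around the core GGAA. It directs myeloid and B cell development, it is present in immature erythroid cells, and it has to fall for erythroid cells to mature. In MEL cells retroviral insertion at its gene keeps it on. Transcript ends are where RNA is cleaved and polyadenylated, and the DNA around them can also hold enhancers, last exons of neighbouring genes and starts of noncoding transcripts.

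The sequence under the windows was read against a matrix of 14 positions. The matrix was learned on windows over 5 kb from a TSS and over 2.5 kb from a transcript end, none of them described here. Learning started from the word GAGGAAGT, so that its presence in the consensus AAAAGAGGAAGTGG was favoured beforehand. A window was said to hold a site when its best match on either strand scored as high as the top 10% of the 20770 candidate windows that were not kept. The following sites come from windows that had many reads in both cell types, that differed between the cell types or that lie at genes of blood cell development. Capitals mark the 14 matched bases, with 8 bases on either side, read 5′ to 3′ on the strand of the match.
Mthfd1, intron, plus strand of chr12:77420034-77420063: caccagcaAAATGAGGAACTGAactaagaa
Slc23a2, intron, plus strand of chr2:131920391-131920420: ctgctctaGAAAGAGGAAGTGTggccgtca
Itgb7, intron, minus strand of chr15:102056004-102056033: ataaaaaaAAAAGAGGAAGTGCtcgtggaa
Maea, 3′ UTR, plus strand of chr5:33715156-33715185: ctcttagaAAAAGAGGAAGTGAgatttaat
Gorab, outside genes, plus strand of chr1:165313933-165313962: aatactatGAAAGAGGAAGTGGctgagcag
Pdzd2, intron, plus strand of chr15:12335531-12335560: taggagagAAAAAGGGAAGTGGggtaccgt
Ankrd35, intron, minus strand of chr3:96493031-96493060: aaacggaaAAAAAGGGAAGTGTaggcgaat
Pecam1, intron, minus strand of chr11:106522162-106522191: atcttcaaAAATAAGGAACTGGcctctgaa
Ikzf1, intron, minus strand of chr11:11663270-11663299: cctaattgGAAAGAGGAAGTCAcaccctgc
Dusp6, outside genes, minus strand of chr10:98731478-98731507: acagtggaACAAGAGGAAGTGCtgcggagg

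The window with the most reads of all lies outside genes, 1712 bp past the transcript end of Gltp, and 200 bases around its site are shown with the matched bases in capitals (plus strand of chr5:115117523-115117722).
Gltp: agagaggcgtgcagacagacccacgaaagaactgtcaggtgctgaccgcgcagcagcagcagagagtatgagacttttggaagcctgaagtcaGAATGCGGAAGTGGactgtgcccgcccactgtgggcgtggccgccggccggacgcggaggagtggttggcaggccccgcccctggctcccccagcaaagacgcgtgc

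A site was present in 476 of the 937 kept windows, which is 50.8% (95% Wilson interval, 47.6 to 54.0%). The share is 10% in windows not kept, by the way the score was set. The exact word GAGGAAGT, from which the matrix was started, stood on either strand in 27.6% of kept windows and 5.88% of windows not kept. The shorter word GAGGAA, which the first contains, stood in 62.1% and 42.5%. The rule did not use the sequence. At windows far from both TSSs and transcript ends that met the same thresholds, 58.6% of 15368 held a site. The matrix was learned on the 4000 of these with the most reads, and 54.8% of the other 11368, which had fewer reads, held a site. At windows within 2 kb of a TSS 16.1% of 14955 held a site.

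Within the kept windows the sites lay where the reads were centred. The median distance from the site to the midpoint of the ChIP reads was 24 bp, and 387 of the 476 sites (81.3%) were within 50 bp. In windows not kept that held a site the median distance was 67 bp and 40.4% were within 50 bp. Their midpoints rest on fewer reads, with medians of 6 (MEL cells) and 5 (ES-EP). The 845 windows that had at least 15 reads in a cell type and failed on the input held a site in 20.4%, at a median distance of 46.8 bp.

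**Figure D1:**
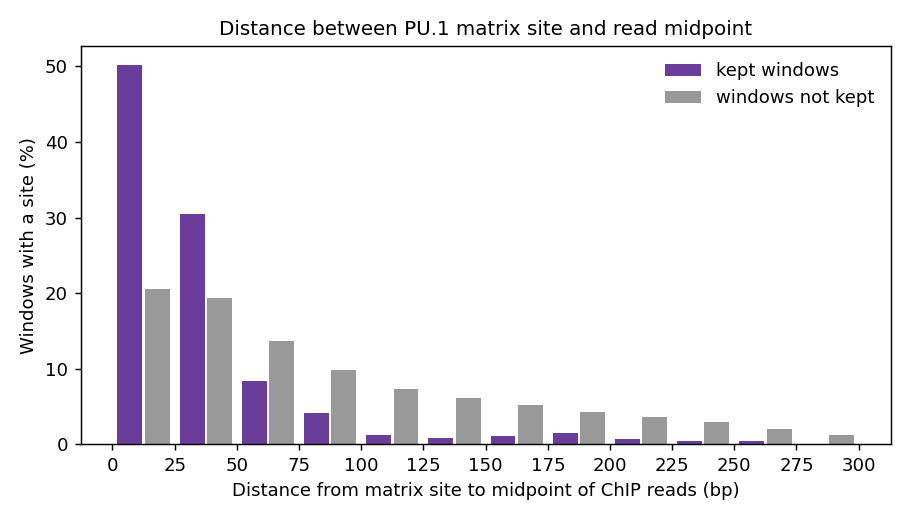
Distance from the matrix site to the midpoint of the ChIP reads (horizontal axis, bp, in steps of 25 bp) as a share of the windows that hold a site (vertical axis, %), for kept windows (purple) and windows not kept (grey). The kept windows pile up close to the site, with 81.3% within 50 bp against 40.4% of the windows not kept.

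The share with a site rose with the number of reads. The kept windows were put into 4 groups of equal size by their reads, and from the fewest reads to the most 35.3%, 49.6%, 53.8% and 64.5% held a site. Over the same groups the windows that passed in both cell types made up 0%, 11.1%, 31.6% and 58.1%, and the parts of reads and of class in the site share were not tested apart. The median distance from site to midpoint went from 33.5 bp in the lowest group to 19.5 bp in the highest.

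Kept windows lay on both sides of the transcript end. The centre was downstream of the nearest transcript end in 453 kept windows (48.3%, interval 45.2 to 51.5%) and upstream in 484, while 50.6% of the windows not kept were downstream. The downstream share was 57.2% of the 711 kept windows outside coding exons, against 54.6% of such windows not kept, and 54.7% when MEL B was left out. No position stood out, as 284 kept windows (30.3%) and 29.4% of the windows not kept were centred within 500 bp of the end. In bins of 500 bp the share of kept windows lay between 9.82 and 15.2%, and that of the windows not kept between 10.7 and 14.7%. The search stops at 2 kb, and 87 kept windows were centred over 1.9 kb from the end. In 56 windows the midpoint of the reads lay beyond 2 kb.

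Averaged over all transcript ends, ChIP over input differed little between the sides. At 14361 ends that are over 7250 bp from a TSS and at least 4 kb apart, taken whatever their reads, ChIP over depth-scaled input in MEL cells was 0.883 upstream and 0.890 downstream for preparation A, and 0.959 and 0.914 for B. In ES-EP it was 0.951 and 0.967 for A, and 1.04 and 1.03 for B. Downstream divided by upstream was 0.991 ± 0.0284 (SD, n = 4 preparations), so that the sides differed by less than the preparations did. The ratio was lowest in MEL B, at 0.953, where the level in bins of 200 bp fell from 1.02 just upstream of the end to 0.879 downstream.

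**Figure D2:**
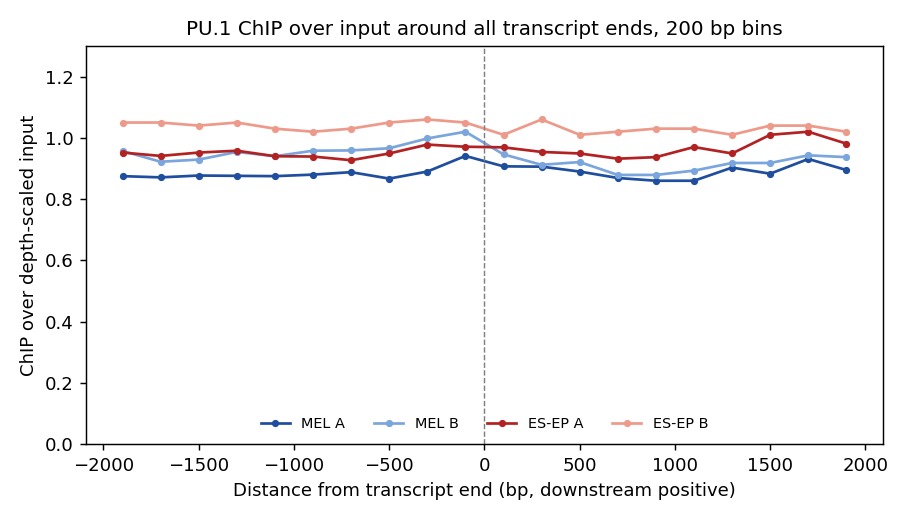
PU.1 ChIP over depth-scaled input (vertical axis) against the distance from the transcript end (horizontal axis, bp, downstream positive, bins of 200 bp) over 14361 ends, with a line for each preparation. The bins run from 0.860 to 0.941 in MEL A, from 0.879 to 1.02 in MEL B, from 0.927 to 1.02 in ES-EP A and from 1.01 to 1.06 in ES-EP B, and the MEL B line is lower downstream of the end than just upstream.

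Segments of 4 kb around transcript ends held a passing window more often than segments elsewhere outside promoters. With all preparations, 666 of 14361 end segments (4.64%) had one, against 2.89% of 173065 gene body segments and 1.73% of 374219 intergenic segments, all over 7250 bp from a TSS at their middle. The 3 shares were 2.72%, 1.97% and 1.14% without MEL B, 2.86%, 1.97% and 1.15% with the floor on the input as counted, and 2.82%, 1.8% and 1.08% with at least 20 reads. Each preparation was then read alone, with the minimum number of reads lowered in proportion to its depth. The share of end segments was 4.81% in MEL A and 5.35% in MEL B, and 6.16% and 2.95% in the ES-EP preparations A and B. In gene bodies it was 3.54%, 2.54%, 4.57% and 1.82% in the same order, and between genes 2.21%, 1.46%, 2.67% and 0.892%. The ends were higher in 4 of 4 preparations against both, by 1.61 ± 0.354 times (SD, n = 4) over gene bodies and 2.86 ± 0.735 times over intergenic segments. In a two-sided exact sign-flip test over the 4 preparations, 2 of the 16 sign patterns gave a difference as large, the fewest that 4 preparations allow, so that the test could not reach 0.05. End segments also had more input reads, with a median of 22 against 18 in gene bodies and 13 between genes. Among segments with at least 4 input reads per kb the shares were 5.73%, 4.01% and 3.47%. When the window also had to hold a matrix site the shares were 2.47%, 1.91% and 1.14%.

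**Figure D3:**
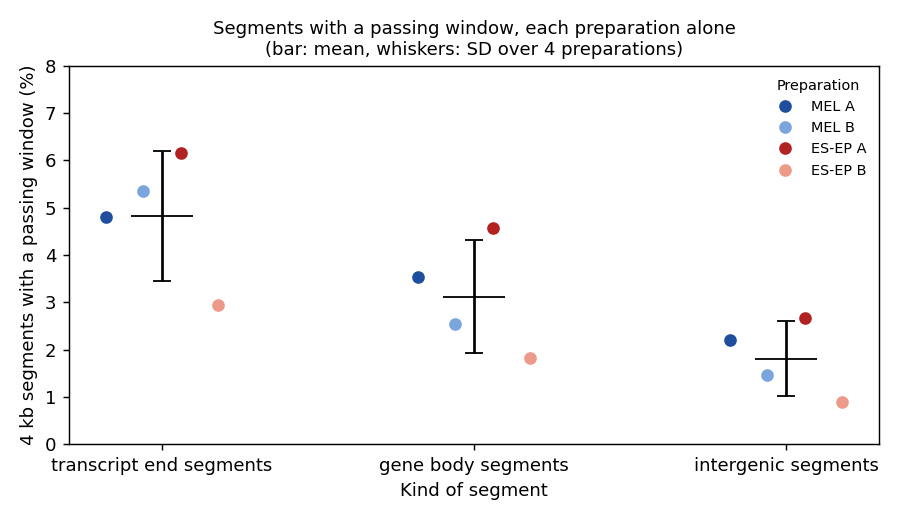
Share of 4 kb segments with a passing window (vertical axis, %) at transcript ends, in gene bodies and between genes (horizontal axis), a point for each preparation read alone and the mean with its SD over 4 preparations. In each preparation the point at transcript ends is the highest, from 2.95% in ES-EP B to 6.16% in ES-EP A.

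Kept windows fell into introns in 292 cases (31.2%), outside genes in 253 (27.0%), in coding exons in 226 (24.1%) and in 3′ UTRs in 165 (17.6%), and 1 was in another exon. Windows not kept were in these places in 36.5%, 30.2%, 11.2% and 22.0%. Coding exons therefore made up a larger part of the kept windows, and they were also the place with the fewest sites. A site was present in 64.0% of kept intron windows, 58.1% of those outside genes, 55.2% of those in 3′ UTRs and 22.1% of those in coding exons. The share was 44.6% in the 484 upstream windows and 57.4% in the 453 downstream windows, and outside coding exons it was 59.9% of 304 and 60% of 407. Coding exons held 180 of the upstream windows and 46 of the downstream windows, the latter at ends of shorter transcripts or of overlapping genes. Introns held 117 of the downstream windows, past the end of a shorter transcript or within an overlapping gene. Those of Ikzf1, Pecam1, Pdzd2, Vav1, Itgb2, Ptpn2 and Ksr1, named below, lie in introns of the same gene.

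Windows that passed in both cell types held a site most often. Of the 937 windows 236 passed in both cell types, 423 in MEL cells only and 278 in ES-EP only. A site was present in 81.4% of those that passed in both, 44.6% of those in ES-EP only and 37.8% of those in MEL cells only. Among windows that passed in both the share was 88.4% (38 of 43) in 3′ UTRs and 86.0% (74 of 86) in introns. It was 78.7% (70 of 89) outside genes and 52.9% (9 of 17) in coding exons. These classes depend on how the floor is read and on single preparations. With the floor of 3 set on the input as counted, 158 windows passed in both cell types, 111 in MEL cells only and 308 in ES-EP only, so that the larger of the single classes changed. Without MEL B the windows that passed in MEL cells only went from 423 to 34, and without ES-EP A those in ES-EP only went from 278 to 35. Leaving out a preparation also removes its reads from the count that the minimum of 15 is set against. The site share among windows that passed in both stayed the highest under each alternative (79.5 to 92.2%), while the order of the single classes turned without MEL B (79.4% in MEL cells only, 55.3% in ES-EP only) and with the inputs of both cell types pooled (53.5 and 43.8%).

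**Figure D4:**
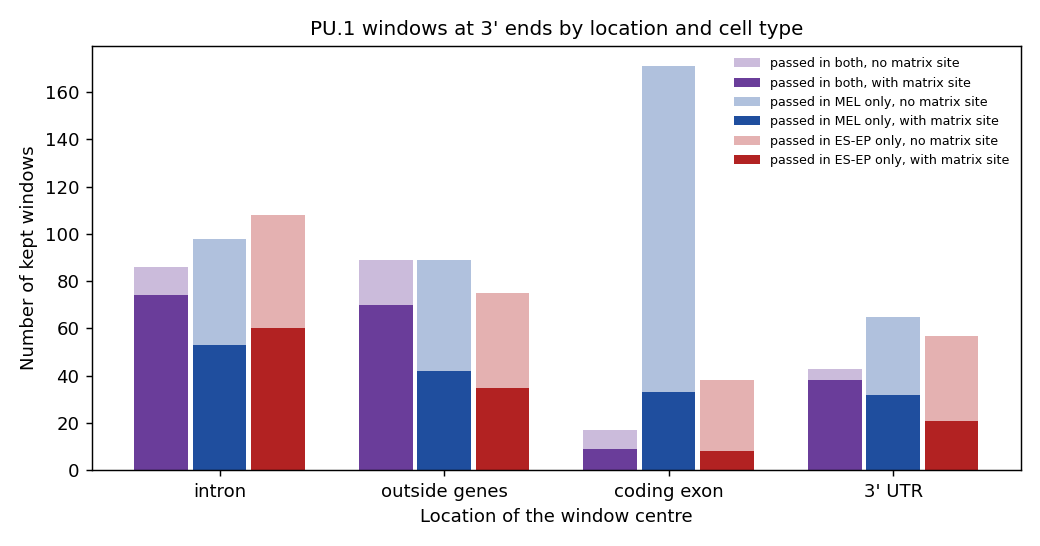
Number of kept windows (vertical axis) by location of the window centre (horizontal axis) and by the cell type in which they passed (colours), with the dark part of each bar holding a matrix site. The tallest bar is coding exon windows that passed in MEL cells only, of which 33 of 171 held a site.

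Most coding exon windows passed in MEL cells only. Of the 226 coding exon windows, 171 passed in MEL cells only, 38 in ES-EP only and 17 in both. In those 171 the ChIP reads had a median of 21 (MEL cells) and 20 (ES-EP). The input had medians of 1 and 8 reads, or 2.37 and 11.3 per 10 M reads of the library. The rule divides by the input of each cell type, so a pass in MEL cells only selects for little MEL input and much ES-EP input, and these medians are a description. Over all 2560 coding exon candidates the ES-EP input was 1.09 times the MEL input. The 171 windows had a median GC content of 64.4%, against 57.0% in the 17 coding exon windows that passed in both cell types and 52.6% in coding exon windows not kept, and 19.3% of the 171 held a site. The share of MEL only windows rose with GC over all candidates, from 1.86% of windows with 50 to 60% GC to 56.5% of the 69 windows with 70 to 80%. The mean ES-EP input was 0.725 times the MEL input at 50 to 60% GC, where 112 windows were MEL only, 1.33 times at 60 to 70% with 137, and 4.21 times in the 69 windows with 39. At 30 to 40% GC it was 1.27 times, with 0.718% of windows MEL only, and at 40 to 50% GC 0.973 times, with 0.985%. At 30 to 40% GC the mean input was 1.62 per 10 M in MEL cells and 2.06 in ES-EP, so that the ratio there rests on few reads per window. In the 69 windows with 70 to 80% GC the mean ChIP was 25.3 per 10 M in MEL cells and 40.2 in ES-EP. When the inputs of both cell types were pooled, a choice made after seeing the data, 847 windows were kept, 711 of them among the 937, and coding exon windows that passed in MEL cells only numbered 78. The part of input composition in the MEL only class was not tested further.

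GC-rich windows were mostly in coding exons. The median GC content of kept windows was 51.6% against 46.2% in windows not kept, and 134 windows (14.3%) were CpG-rich (GC above 50% and observed over expected CpG above 0.6) against 1.27% of the windows not kept. Of the 134, 101 were in coding exons and 113 passed in MEL cells only, and 12 held a site. Outside coding exons 4.64% of kept windows were CpG-rich, against 0.597% of windows not kept. In 90 kept windows (9.61%) a transcript of another annotated type began within 1 kb, against 5.21% of the windows not kept, most often a processed transcript (30) or a transcript with a retained intron (26).

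The windows chosen on a preparation were read in the other preparation of the same cell type, which had no part in the choice. Of 135 windows chosen on MEL A, 132 (97.8%) were at 3 times the scaled input or more in MEL B, against 6.84% of the windows not chosen. Of 401 chosen on MEL B, 224 (55.9%) were so in MEL A, against 3.21%. The 177 MEL B windows that did not repeat had a site in 28.8% and a median GC content of 60.4%, and the 224 that repeated had a site in 72.8% and a GC content of 50.7%. Of 255 windows chosen on ES-EP A, 167 (65.5%) repeated in ES-EP B, and of 113 chosen on ES-EP B, 106 (93.8%) repeated in ES-EP A, against 4.16% and 4.80% of the windows not chosen. The preparation of a cell type with more windows thus repeated less often in the other, and MEL B held most of the GC-rich windows that did not repeat. Both readings share the input of the cell type. The minimum of 15 reads was not lowered for a single preparation, so that the windows chosen had more reads for the depth than the rule asks. Among the 937 windows, 720 were at 3 times the scaled input in each preparation of a cell type in which they passed, and 56.4% of these held a site against 32.3% of the rest. The same reads chose the 937 windows, so that the 720 are a description and no test of repetition.

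The 20 windows with the most reads, 10 on each side of the end, were mostly shared. They were ranked by depth-scaled reads summed over both cell types. Of these 18 passed in both cell types, 17 held a site, and 17 had more depth-scaled reads in ES-EP. Over all candidates the mean was 5.99 reads per 10 M in MEL cells and 5.45 in ES-EP. Of the 20, 7 were CpG-rich, against 14.3% of all kept windows. These were Gltp, BC046404, Epb4.1l4a and Dll4, outside genes, Prdm2, in an intron, and Dda1 and Snx20, in coding exons. The window with the most reads was the one past the end of Gltp, which encodes a glycolipid transfer protein. In MEL cells it held 161 reads in preparation A and 307 in B, and in ES-EP 489 and 309, over 3 MEL and 14 ES-EP input reads. The values overlap after scaling for depth between the cell types, and the difference did not pass (log2 MEL over ES-EP −0.73, SE 0.61).

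Downstream of the end, the window of BC046404 followed with 90, 208, 280 and 195 reads. Here and below, 4 read numbers in a row are those of A and B from MEL cells and then of A and B from ES-EP. It is 81 bp from the annotated start of the small nucleolar RNA gene Snord49b, and its GC content is 60.8%. The window of Epb4.1l4a, a band 4.1-like gene, held 48, 130, 168 and 135 reads and is 25 bp from the start of the lincRNA 2410004N09Rik. Both are thus next to the annotated start of a noncoding transcript, and whether transcription begins there was not tested.

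The window of Dll4, a ligand of Notch receptors, held 46, 83, 195 and 98 reads, 1952 bp past the end and close to the limit of the search. The window of Glud1, glutamate dehydrogenase, lies past the end of a shorter transcript and in an intron of the gene, with 36, 42, 128 and 52 reads. The window of Pdzd2 went the other way, with 71, 97, 61 and 20 reads. ES-EP A had the most reads of the 4 preparations in the Dll4 and Glud1 windows, and MEL B in the Pdzd2 window.

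The window of Gcn1l1, an activator of an eIF2α kinase, held 43, 54, 125 and 73 reads, and that of Gorab, a Golgi protein, held 37, 43, 102 and 51. A window past the end of Dda1 lies in a coding exon of Ano8, whose transcript ends there too, and passed in MEL cells only, with 28, 59, 125 and 84 reads over 8 MEL and 55 ES-EP input reads. The window of Prdm2, a zinc finger histone methyltransferase gene, lies 59 bp past an end inside the gene and held 26, 51, 101 and 50 reads. The Dda1 and Prdm2 windows held no site and had GC contents of 79.4 and 70.8%.

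Upstream of the end, the window of Mthfd1, an enzyme of folate metabolism, lies in an intron 738 bp before the end and held 79, 132, 211 and 127 reads. Its site is 5 bp from the read midpoint, and 79.4% of its reads are on the same strand. Over all kept windows, 33 had more than 80% of their reads on the same strand, and the intron window of Spats1 with 88.8% is among them, with 42, 46, 63 and 37 reads.

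Itgb7 encodes the β7 integrin subunit of lymphocytes, and its intron window held 32, 45, 81 and 52 reads. Ms4a15, of the CD20-like family, had 31, 64, 82 and 49 reads in an intron. ES-EP A had the most reads in both windows.

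Prkrip1 had 44, 48, 134 and 58 reads in an intron. Def8 had 24, 33, 103 and 81 reads, also in an intron. In the Prkrip1 and Def8 windows both ES-EP preparations exceeded both MEL preparations, and neither difference passed the test (log2 −0.86, SE 0.59, and −1.60, SE 0.59).

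The windows of Slc23a2 and Maea had more reads in MEL cells. Slc23a2 encodes an ascorbate transporter, and its window held 54, 89, 34 and 33 reads, 15 bp from the start of a processed transcript of the same gene. Maea, first described in the attachment of macrophages to erythroblasts, had 45, 81, 33 and 28 reads in its 3′ UTR, with the site at the read midpoint. The 3′ UTR window of 9030425E11Rik held 35, 46, 80 and 43 reads and is 14 bp from the start of the processed transcript Gm16096. Neither the Slc23a2 window (log2 1.12, SE 0.59) nor the Maea window (log2 1.06, SE 0.59) passed the test.

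Differences between MEL cells and ES-EP were tested with limma over the 2 preparations of each on all 21707 candidate windows. At an adjusted p below 0.05, 22 windows were higher in MEL cells (0.101% of all tested) and 10 in ES-EP (0.0461%), and 10 and 4 of these are kept windows. The kept windows were chosen for reads in at least 1 cell type, so that their 14 calls are not read against that background. All 10 kept calls higher in MEL cells passed the rule in MEL cells only, and Pecam1 and Ttpal in ES-EP only. These windows were kept only through the cell type in which they are high, by the same reads that were tested. With scaling by median ratios in place of total reads the split over all windows was 19 to 15. That scaling moved the median log2 difference of all windows from 0.13 to −0.01. The calls rest on 2 preparations each and are not stable. No window passed when MEL A, MEL B or ES-EP A was left out (1803, 1711 and 999 had an unadjusted p below 0.05), and 20 passed without ES-EP B, all of them higher in ES-EP. With limma on log2 of scaled reads plus 0.5 no window passed either, with 1078 windows at an unadjusted p below 0.05 against 1628 by voom. When only the 6184 windows with at least 15 ChIP reads were tested 3 passed, at Cask, Nrg2 and Pecam1, and the Ankrd35 window did not. The calls are therefore given with their reads.

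The largest difference was at Ankrd35, which encodes an ankyrin repeat protein. Its intron window, 1391 bp before the end, held 65 reads in MEL A and 66 in MEL B, and 1 read in each of ES-EP A and ES-EP B, over 5 input reads in each cell type. The ratio of depth-scaled reads was 69.0 (exact 95% interval 18.7 to 576, counting error only), with a limma log2 difference of 5.54 (SE 0.99, adjusted p = 0.000531). The MEL preparations lie far above the ES-EP preparations, and a site stands 10 bp from the read midpoint.

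Mlana, a melanosome protein gene, had 38 and 52 reads in the MEL preparations and 1 and 2 in those of ES-EP (ratio 31.6, exact 95% interval 10.5 to 156, adjusted p = 0.0055 by limma). Bcl9, a coactivator of β-catenin, had 23 and 41 against 2 and 3 reads in its 3′ UTR (log2 3.46, SE 0.69, adjusted p = 0.00468). Serpinb11 had 21 and 38 against 3 and 1 reads outside genes (log2 3.85, SE 0.84, adjusted p = 0.0118). Without ES-EP B the log2 difference at Serpinb11 was 3.02, and without ES-EP A 4.46.

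Slc25a24, a mitochondrial carrier, had 24 reads in each MEL preparation and 2 and 1 in those of ES-EP (ratio 16.9, interval 5.44 to 84.7, adjusted p = 0.0407 by limma). Casp9, the initiator caspase of the mitochondrial pathway of apoptosis, had 8 and 7 reads in MEL cells and none in ES-EP. With a floor of 3 reads put in for both ES-EP preparations together it was 5.27-fold higher, counting error not included (adjusted p = 0.00823 by limma). The Casp9 window met the minimum of 15 reads exactly. The other 4 called windows that were higher in MEL cells, at Cask, Vwf, Umps and Stc2, had log2 differences between 2.48 and 2.77. At Umps and at Stc2 the ES-EP level was 13.7 per 10 M in preparation A and 1.48 in B, and the difference was 1.32 and 1.23 without ES-EP B, and 4.04 and 3.95 without ES-EP A.

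Higher in ES-EP was the intron window of Pecam1, the adhesion molecule CD31 of endothelial and blood cells, with 7, 6, 62 and 42 reads. Input was 2 reads in each cell type, the log2 difference was −2.81 (SE 0.59, adjusted p = 0.00803 by limma), and a site stands 2 bp from the read midpoint. Ttpal, a gene of the tocopherol transfer protein family, had 12 and 7 reads in ES-EP and none in MEL cells. With a floor of 3 reads put in for both MEL preparations together it was 6.01-fold higher in ES-EP, counting error not included (adjusted p = 0.0055 by limma).

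The other pair of windows higher in ES-EP passed the rule in MEL cells only. Snx20, a sorting nexin, had 11, 17, 105 and 60 reads, over 2 MEL and 37 ES-EP input reads (log2 −2.42, SE 0.59, adjusted p = 0.0335 by limma). Nrg2, a neuregulin, had 4, 14, 65 and 41 reads, over 1 MEL and 32 ES-EP input reads (log2 −2.60, SE 0.59, adjusted p = 0.0227), and its difference was −1.92 without MEL A and −3.32 without MEL B. Both are coding exon windows with GC contents of 74.4 and 77.0% and no site, and the input moved the same way as the ChIP reads.

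Of the 14 called windows 8 held a site, 7 of them among the 10 that were higher in MEL cells. Ankrd35, Bcl9 and Slc25a24 are on chromosome 3, where the MEL input was 1.32 times the ES-EP input relative to the autosomes, and Snx20 is on chromosome 8, where it was 0.725 times. The depth-scaled ratios not taken relative to the autosomes were 1.27 on chromosome 3, 0.699 on chromosome 8 and 1.5 on the X chromosome. With such ratios of each chromosome as an offset 27 windows were called, 11 of the 14 among them. The calls lost were Slc25a24 (log2 difference 3.43 in place of 3.78), Snx20 (-1.9 in place of -2.42) and Cask (1.9 in place of 2.48), the last on the X chromosome, where the MEL input was 1.55 times the ES-EP input relative to the autosomes. With a preparation left out, the calls that passed were Pecam1, Snx20 and Nrg2 without ES-EP B, and no other of the 14 did.

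**Figure D5:**
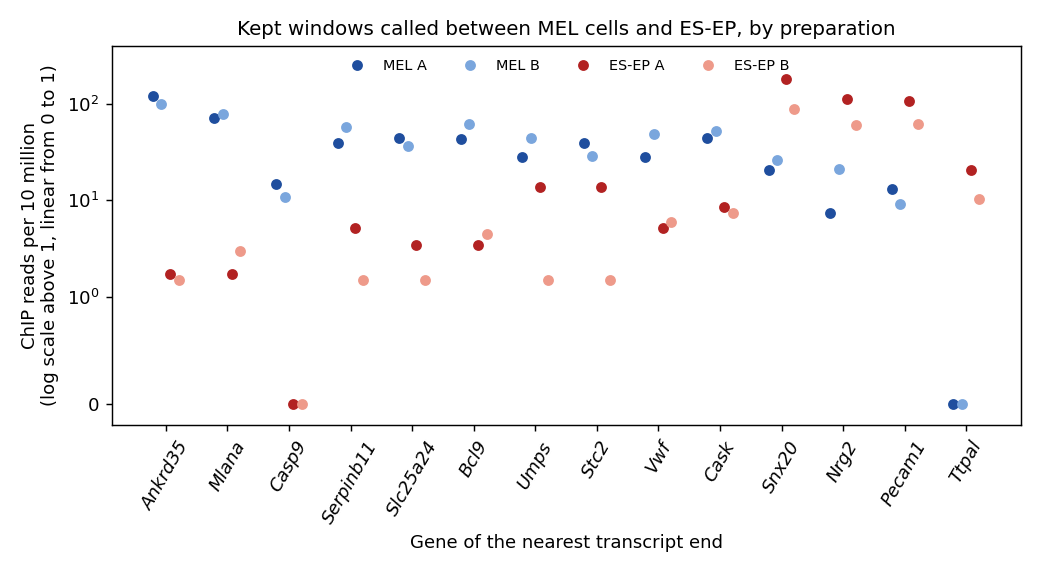
Depth-scaled ChIP reads per 10 M (vertical axis, log scale above 1 and linear from 0 to 1) in each preparation for the 14 kept windows called between the cell types, named by the nearest gene and ordered by the fitted difference (horizontal axis). The MEL and ES-EP points do not overlap in any of the 14, which were chosen for their difference (they do not overlap in 35.6% of all 21707 candidates and 50.8% of the 937 kept windows), and Casp9 and Ttpal have no read in the lower cell type.

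Gene lists chosen with earlier results of these data known were read for kept windows. Beside a share of 4.32% over all candidates, kept windows made up 5 of 50 candidate windows of hematopoietic transcription factors, 4 of 42 of myeloid and B cell genes, 5 of 39 of erythroid genes, 4 of 51 of PI3K-Akt genes, 3 of 52 of Ras-ERK genes and 2 of 37 of JAK-STAT and SOCS genes. The median depth-scaled reads (per 10 M, both cell types summed) ran from 9.88 to 13 over the candidates of the 6 lists, against 9.70 over all. None of the 6 lists had a window called by limma by either method, and 25 of their 271 candidate windows (9.23%) had an unadjusted p below 0.05, against 1628 of 21707 (7.5%) over all candidates. The 25 comprised 9 of 39 windows of erythroid genes, 7 of 51 of PI3K-Akt genes, 4 of 50 of hematopoietic transcription factors, 3 of 52 of Ras-ERK genes, 2 of 37 of JAK-STAT and SOCS genes and 0 of 42 of myeloid and B cell genes, and nothing is read from this split.

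Among hematopoietic transcription factors the windows fell into 2 kinds. The intron window of Ikzf1, which encodes Ikaros, passed in both cell types with 32, 45, 36 and 23 reads and held a site. The coding exon windows of Zfpm1 (the GATA-1 cofactor FOG-1), Runx1 and Runx3 passed in MEL cells only and held no site. Zfpm1 had 11, 27, 37 and 29 reads. Runx1 had 10, 24, 23 and 13 reads, and Runx3 had 6, 22, 16 and 16. In each of the 3 the MEL B preparation had more reads than MEL A, and the ES-EP preparations overlapped or exceeded them. Input in these 3 windows was 4, 3 and 2 reads for MEL cells and 38, 19 and 8 for ES-EP, and the GC content was at least 68.6%. The fifth window, in the 3′ UTR of Meis1, passed in both cell types.

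The myeloid and B cell genes had windows near the thresholds. Fcgr2b, an inhibitory Fc receptor, had 7, 11, 7 and 8 reads, outside genes and with a site. Ncf1, a subunit of the NADPH oxidase, had 9, 8, 11 and 5 reads. The windows of Ncf1, Vav1 and Itgb2 are in introns and hold no site. Vav1, an activator of Rac, had 6, 4, 7 and 11 reads, and Itgb2, the β2 integrin subunit, had 9, 6, 3 and 5.

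Of the erythroid genes, Tfrc, the transferrin receptor, had its window 1620 bp past the end with 22, 12, 20 and 12 reads, a site, and a pass in both cell types. The pair of windows at Spnb1, erythroid β-spectrin, passed in ES-EP only, with 7, 13, 6 and 9 reads at the window with a site and 1, 5, 9 and 11 at the other. The window with a site had more depth-scaled reads in MEL cells (16.7 against 11.9 per 10 M), over 5 MEL and 2 ES-EP input reads. Rhag, of the Rh complex, had 4, 1, 9 and 7 reads in an intron. A second Tfrc window, in an intron 1938 bp past the end of a shorter transcript, passed in ES-EP only with 3, 0, 7 and 8 reads and a site (log2 difference -2.45, SE 0.98, adjusted p = 0.437 by limma). Of these 5 windows 3 had an unadjusted p below 0.05, against 27.3% of the 937 kept windows, and none was called. All 3 passed in ES-EP only, the cell type in which they were higher.

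In the signalling lists the clearest window was that of Dusp6, a phosphatase that turns off ERK, 1328 bp past the end. It held 40, 51, 23 and 14 reads, with a site and a pass in both cell types (log2 1.39, SE 0.59, not called). The Gsk3b intron window also passed in both, with 14, 25, 23 and 19 reads and a site. The other 3 windows of PI3K-Akt genes passed in MEL cells only. The cell cycle inhibitor Cdkn1b (p27) had 6, 19, 26 and 10 reads, over 2 MEL and 9 ES-EP input reads, and a GC content of 63.8%. Phlpp1, an Akt phosphatase, had 10, 21, 5 and 8 reads and a site, and Pdpk1, the kinase upstream of Akt, had 7, 9, 5 and 3.

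Ksr1, a scaffold of the Ras-ERK cascade, had a pair of windows that passed in ES-EP only, with 18, 27, 23 and 9 reads in an intron and 4, 12, 9 and 9 in a coding exon. The intron window had more depth-scaled reads in MEL cells (37.7 against 25.4 per 10 M), over 6 MEL and 1 ES-EP input reads. Socs7, a suppressor of cytokine signalling, had 8, 19, 17 and 10 reads and passed in MEL cells only. Ptpn2, a phosphatase of JAK and STAT proteins, had 5, 2, 17 and 11 reads, passed in ES-EP only and held a site.

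The thresholds cut through many windows. Of the 937, 97 were exactly at a threshold, and 234 were less than 1.1 times above it. Just inside were the windows of Casp9, Tdrd3, Kif18b and Sertad2, each with 15 reads in the cell type in which it passed. Just outside were those of Rinl and Faim2 with 34 MEL reads each over 4 input reads, and of Chst13 and Fam50b with 17 MEL reads each over 2 input reads.

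The kept windows belong to 907 genes, 30 of which had more than 1. In 75 windows the ends of at least 2 genes lay within 2 kb, so that the gene named is only the nearest. Of the 907 genes 463 (51.0%) also had a window within 2 kb of a TSS that met the same thresholds, against 39.4% of the 13983 genes with candidate windows only. The share was 49.1% for genes whose 3′ end window held a site and 53.1% for the others.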

How the data were processed

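PU.1 ChIP-Seq was made from MEL cells and ES-EP. Per the methods of the study, the authors ran the libraries on a GAII instrument, placed the reads on mm9 by the ELAND pipeline (version not given in the sources used here) and kept unique alignments with up to 2 mismatches. The deposited files list aligned reads and carry no other value, so that counts were made here from their lines. Ends were moved by 70 bp (MEL cells) or 65 bp (ES-EP), windows moved by 50 bp, and genes came from GENCODE on the same assembly. Library letters were taken as preparations. The same letters in both cell types did not pair (r = −0.00124 between deviations).

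Differences were tested with limma 3.58.1 (voom, two-sided, Benjamini-Hochberg over 21707 windows). The p-values rest mostly on a spread between preparations that is pooled over all windows and fitted to the number of reads. With 2 preparations per cell type, a window's own spread counts for little in them. On simulated data with 100 windows changed 8-fold and 100 changed 4-fold limma recovered 99 and 58, with 11 false calls. The changed windows were drawn only from windows with more reads than those of Casp9 and Ttpal, and the simulated spread between preparations was set. These counts therefore do not give the recovery in windows with few reads. The windows named are the 10 with the most reads on each side of the end, up to 6 called with the largest fold in each direction, up to 4 per gene list and 4 on each side of the thresholds; Meis1, Cask, Vwf, Umps, Stc2 and the second Tfrc window were named after their values were seen. The windows, lists and rules were chosen with earlier results of these data known. Intervals cover counting error only. The sequences are from the NCBIM37 genome.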

Additional observations from a re-analysis of the deposited data

Results flagged for a closer look

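In 6 of 106 groups of 4 libraries a library stood apart from the other 3, by a gap that 4 values give by chance in about 1 of 20 groups. The values are reads per 10 M in the windows named in the report. Snx20 had 5.35 in MEL A1, against 24.6 to 28.5 in the other MEL libraries. Prdm2 had 31.4 in MEL A2, against 76.0 to 80.2. Serpinb11 had 0 in ES-EP B2, against 4.66 to 5.44. Nrg2 had 136 in ES-EP A2, against 59.5 to 70. The intron window of Ksr1 had 46.7 in MEL B2, against 32.0 to 34.2. Tdrd3 had 5.70 in MEL A2 and 0 in the other MEL libraries.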

How the results depend on the processing

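The 937 windows became 577 with a floor of 3 on the input as counted, 560 with at least 20 reads and 577 over 10 kb from a TSS, and between 541 (without MEL B) and 735 with a preparation left out. With only the end of each gene's longest transcript 632 were kept, and 67.4% of the 937 overlapped them. In that setting the downstream share was 47% and the site share 49.2%. With a preparation left out the windows were placed anew. Of the 937, 515 (55%) overlapped a window kept without MEL B, against 68.9 to 73.9% with another left out. The downstream share of 48.3% became 52.0% with the counted floor, 57.2% outside coding exons and 47.2 to 54.7% with a preparation left out. The site share of 50.8% became 59.4% with the counted floor, 59.3% with at least 20 reads, 55.9% at 5 times the input, 55.5% over 10 kb from a TSS, 59.1% with pooled inputs, 56.4% with 3 times the input in each preparation, 59.9% outside coding exons, and 53.0 to 63.8% with a preparation left out. Scores reached by 5 or 20% of windows not kept gave 40.2 and 61.6%, and the words GAGGAAGT and GAGGAA 27.6 and 62.1%. The share of end segments (4.64%) became 2.86% with the counted floor, 2.82% with at least 20 reads, 2.47% with a site, and 2.72 to 3.63% with a preparation left out. The pooled inputs, the windows outside coding exons, those with a site and the reading in each preparation were chosen after seeing the data.

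The 32 limma calls became 0 on log2 of scaled reads plus 0.5, 3 among the 6184 windows with at least 15 reads, 94 with each library as a sample, and 0 to 20 with a preparation left out, which assumes that the lone preparation varies like the others. With the letters as a replicate block 0 were called and 1388 had an unadjusted p below 0.05; with 2 letters the block leaves few degrees of freedom. Of 154 refits of the 14 called windows, 57 passed, 97 did not and 0 changed direction. Of the 57 passes 14 came from taking each library as a sample, which counts the 2 libraries of a preparation as replicates though they share its chromatin. Another 13 came from scaling by median ratios and 13 from keeping all reads. The causes were not tested. Depth limits the windows near 15 reads and the MEL input, where a read stands for 2.84.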
